A study of Mus musculus with 12 samples.

Results

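The 44 genes described here are antiviral interferon-stimulated genes, that is, genes that cells switch on in response to interferon and whose products interfere with viruses. They were taken as a list of symbols and found by gene identifier, through GENCODE mouse release M21 (GRCm38), among the 55487 identifiers of the deposited count tables. All 44 matched 1 identifier each. They were measured by RNA sequencing in 12 libraries of mouse OT-1 CD8+ T cells, which are cytotoxic T cells of a T cell receptor transgenic line that recognises an ovalbumin peptide. The libraries form 4 groups of 3. Female and Male are spleen cells of either sex that were activated with beads against CD3 and CD28 plus recombinant mouse IL2 and collected on day 3. WT and KD are another batch of male cells that went through electroporation and then 3 days of culture. In KD, Cas9 was delivered with a guide RNA to lower KDM5D, a histone demethylase encoded on the Y chromosome. In WT, guide RNA was delivered with no Cas9. No group received Cas9 without that guide, so effects of Cas9 and of lower Kdm5d cannot be told apart in KD against WT. Male and Female differ in their sex chromosomes as a whole. Neither the number of mice nor separate cultures were stated, so the p-values measure the spread between these libraries, which may be technical.

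Type I interferons bind a shared receptor, whose kinases JAK1 and TYK2 phosphorylate STAT proteins. The complex ISGF3, which includes STAT2 and IRF9, then binds the interferon-stimulated response element (ISRE) in the promoters of antiviral genes. The products act at many steps of a virus life cycle: IFIT proteins hold foreign RNA, OAS enzymes make the messenger 2-5A, which leads to breakdown of RNA, MX proteins are GTPases that trap viral nucleoproteins, RIG-I-like receptors sense viral RNA, and ISG15 is a ubiquitin-like modifier. In T cells the same genes respond to interferon made by other cells or by the T cells themselves.

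To show what the members share in sequence, promoters were searched for the core letters of the ISRE, GAAA, any 2 bases and GAAA, on both strands, in the RefSeq promoter table for GRCm38.p6 (250 bases before to 50 after each start). Of the 44 members, 33 were in that table and 18 of these had a match, against 3.99% of all 27025 symbols in it. By promoter, 21 of 40 member promoters had a match, against 3.44% of all 32851. The looser TTCNNNGAA, the core of the GAS element of interferon gamma signalling, matched in 6 of the 33 members, against 9.55% of all symbols. The members with no entry in the table were Ifi27l2a, Parp14, Oas2, Usp18, Dhx58, Zbp1, Mx1, Mx2, Ifi27, Parp9 and Rtp4. ISRE matches may overlap each other. A match is a description of the letters and no measurement of binding. The stretches below are from members whose values follow, with the matched letters in capitals (some on the opposite strand, where they read TTTC, 2 bases and TTTC). They lie before the RefSeq start, outside exons of GENCODE M21, and all but that of Slfn5, which falls within introns of Slfn5 and of its antisense gene Slfn5os, lie outside any annotated gene.
Isg15 (chr4:156200850-156200921, minus strand): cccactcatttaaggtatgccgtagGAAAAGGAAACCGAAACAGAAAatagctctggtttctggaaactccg
Ifit1 (chr19:34640760-34640838, plus strand): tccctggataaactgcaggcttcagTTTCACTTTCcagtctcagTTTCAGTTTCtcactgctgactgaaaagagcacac
Ifit3 (chr19:34583348-34583441, plus strand): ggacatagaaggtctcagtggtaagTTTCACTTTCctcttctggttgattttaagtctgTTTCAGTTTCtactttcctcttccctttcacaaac
Oas1a (chr5:120907526-120907570, minus strand): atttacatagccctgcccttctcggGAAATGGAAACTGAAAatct
Oas3 (chr5:120777700-120777759, minus strand): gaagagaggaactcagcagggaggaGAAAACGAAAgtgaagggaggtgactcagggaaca
Rsad2 (chr12:26456538-26456597, minus strand): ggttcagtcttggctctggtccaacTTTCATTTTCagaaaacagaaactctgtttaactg
Slfn5 (chr11:82951922-82951981, plus strand): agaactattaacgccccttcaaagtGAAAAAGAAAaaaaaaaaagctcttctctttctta
Trim30d (chr7:104507856-104507915, minus strand): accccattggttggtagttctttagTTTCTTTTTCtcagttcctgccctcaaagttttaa
Bst2 (chr8:71537562-71537627, minus strand): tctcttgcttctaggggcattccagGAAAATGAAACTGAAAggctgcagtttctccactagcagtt
Isg15 holds 3 overlapping matches, the first of which begins 78 bases before its start and the last 66 bases before. Oas1a holds 2, which begin 20 and 14 bases before its start, and Ifit1 holds 2, which begin 104 and 85 bases before. Members with a match and members without one moved in the same directions. The median log2 fold change of Male over Female was 1.94 for the 18 with a match and 2.20 for the 15 in the table without one, and that of KD over WT was -1.22 and -0.96.

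Libraries held between 78748647 and 110803318 counts. Levels are given as counts per 1000000 counts of a library (CPM), scaled within each of the 2 tables, and the test throughout is edgeR's quasi-likelihood test with Benjamini-Hochberg adjustment over all genes of a table, called at an adjusted p under 0.05. Kdm5d itself was at 48.4, 51.9 and 52.4 CPM in the WT libraries and 21.4, 21.8 and 22.9 in KD, which is -1.21 on the log2 scale (SE 0.0455, adjusted p 3.13e-08 by edgeR), and Female libraries held 0, 2 and 0 counts of it. The 7 CD8 T cell markers were Cd3d, Cd3e, Cd3g, Cd8a, Cd8b1, Cd2 and Lck. They summed to 2133 to 2158 CPM in Female, 2143 to 2175 in Male, 2541 to 2590 in WT and 2248 to 2302 in KD. In KD against WT, 5 of the 7 were called lower and 0 higher, where 18.4% of all genes were called lower. The 25 listed markers of other blood cells summed to 15.8 to 16.9 CPM in Female, 13.7 to 15.8 in Male, 23.9 to 25.3 in WT and 14.3 to 15.3 in KD. Of these, Ms4a1, Siglech, S100a8, S100a9, Hba-a1 and Hbb-bs had 0 counts in all 12 libraries. Of 11 tested between Male and Female, 3 were called lower in Male (Cd4, Pf4 and Itga2b) and 2 higher (Foxp3 and Cd68). Pf4 held 101, 81 and 78 counts in Female against 0, 0 and 2 in Male. Of 12 tested between KD and WT, 7 were called lower in KD and 0 higher. The shares called in either direction were 45.5% and 58.3%, against 49.8% and 35.1% of all genes. The lower sums of the CD8 markers and of the other-cell markers in KD than in WT move with the members' lower levels there. Their part in the results was not tested. In bulk RNA, fewer cells that use a gene and less RNA of it per cell cannot be told apart.

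All 44 genes were higher in Male than in Female, and all 44 were lower in KD than in WT. In Male against Female the median log2 fold change was 1.94, against 0.011 over the 20208 genes tested, and single genes were between 1.49-fold and 24.2-fold higher. In KD against WT the median was -1.14, against 0.012 over 20413 genes, and KD held between 6.05% and 96.0% of the WT level. Each of the 44 passed the low-count filter in both tables. Over all genes, 49.8% were called between Male and Female (23.5% higher and 26.3% lower in Male) and 35.1% between KD and WT (16.8% higher and 18.4% lower in KD). In each comparison the 3 libraries of one group lay entirely apart from the 3 of the other for all 44 members, a separation found in 58.3% of all genes between Male and Female and in 46.8% between KD and WT. When a change of 1 or more on the log2 scale was required as well, 37 members were called in Male against Female, where 7.28% of all genes were, and 27 in KD against WT, where 3.96% were. No member went against the common direction in either comparison. Of the 44, 12 share over 10% of their 31-base subsequences with other genes, which makes their counts less certain, and the other 32 were all called in both comparisons, with medians of 1.93 and -1.12. Where a pair of log2 fold changes is given below, the former is Male over Female and the latter KD over WT.

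Summed over the 44 genes, the level was 1716 CPM ± 33.1 (SD, n = 3) in Female, 4825 ± 14.0 in Male, 4198 ± 11.0 in WT and 2544 ± 19.1 in KD. Rnf213, the longest of the transcripts by exon length, made up 22.5% of the sum in Male and 16.6% in Female. Without it the sums were 1431 CPM ± 11.4 in Female, 3739 ± 22.3 in Male, 3348 ± 13.1 in WT and 2157 ± 17.1 in KD.

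**Figure D1:**
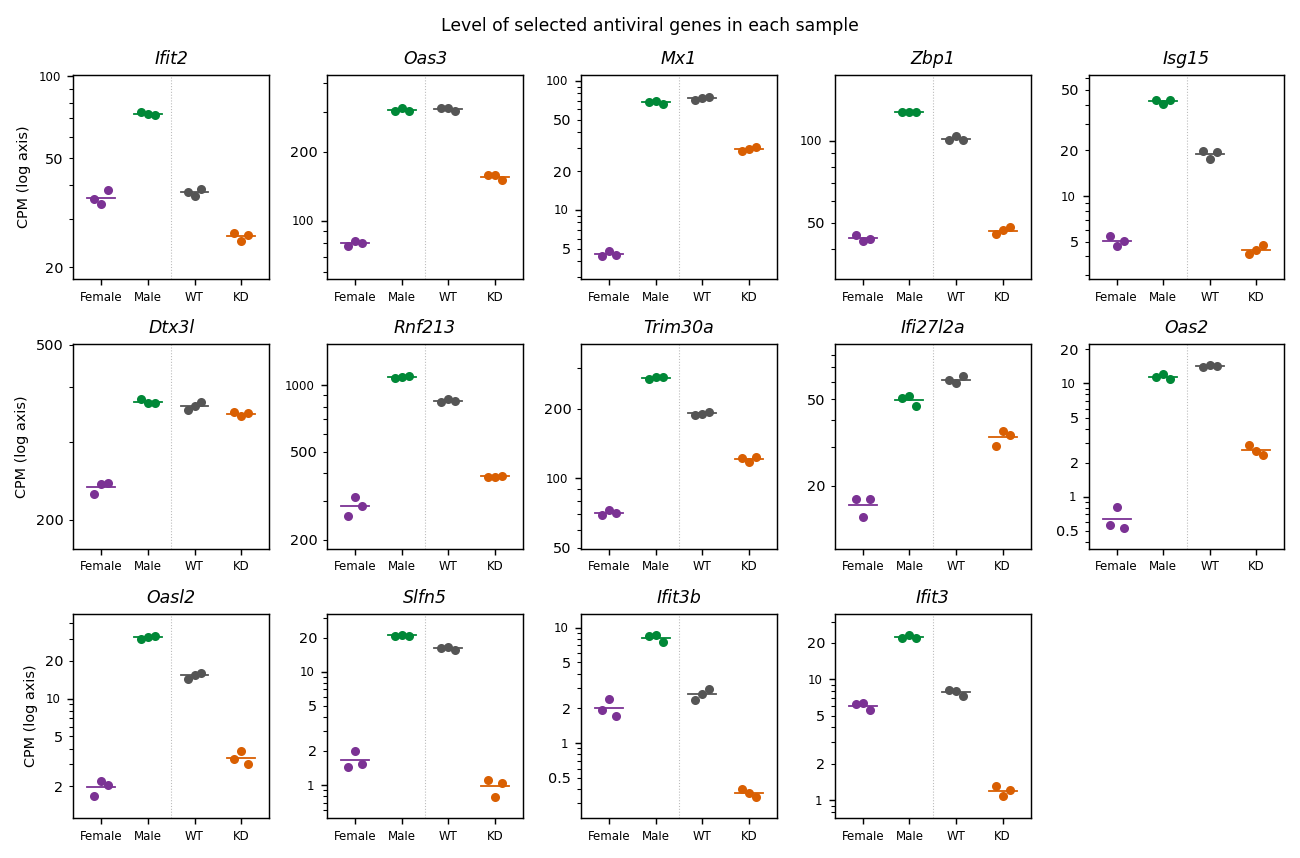
CPM (log axis, with a separate scale in each panel) of 14 members in each library, by group, with points for libraries and a line at the group mean. They are the member of each role group with the highest level per length and the 3 with the largest fold changes per comparison. The latter were taken among genes of at least 1 CPM on average, which leaves out Ifi44. In every panel the 3 Male points lie above the 3 Female points and the 3 KD points below the 3 WT points.

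The IFIT family binds foreign RNA, and its 5 members were higher in Male by log2 fold changes of 1.02 to 2.02 and lower in KD by -2.85 to -0.54. Ifit2 (ENSMUSG00000045932), the member with the highest level per length, was at 35.6, 33.9 and 38.1 CPM in Female and 73.8, 72.3 and 72.3 in Male. It was at 37.7, 36.3 and 38.6 in WT and 26.6, 24.8 and 26.3 in KD. It had the smallest fold change of the family in both comparisons, with log2 values of 1.02 (SE 0.0415) and -0.54 (SE 0.0432, edgeR adjusted p 1.57e-08 and 6.09e-06). Ifit1 recognises RNA with an unmethylated cap and had a larger log2 difference in size between KD and WT than between the sexes. Its means were 20.3 CPM ± 0.390 in Female, 47.5 ± 2.49 in Male, 20.3 ± 0.913 in WT and 3.82 ± 0.117 in KD (SD, n = 3). On the log2 scale these are differences of 1.22 and -2.41.

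Ifit3 and Ifit3b encode near copies of one another. Ifit3 was at 6.23, 6.31 and 5.61 CPM in Female against 22.0, 23.0 and 21.8 in Male, and at 8.10, 7.94 and 7.28 in WT against 1.31, 1.08 and 1.21 in KD. Ifit3b was lower throughout, at 1.95, 2.38 and 1.73 CPM in Female against 8.48, 8.65 and 7.48 in Male, and at 2.38, 2.67 and 2.95 in WT against 0.400, 0.368 and 0.342 in KD. They fell to 15.4% and 13.9% of WT in KD, with log2 fold changes of -2.70 (SE 0.116) and -2.85 (SE 0.181, edgeR adjusted p 8.17e-08 and 1.16e-06). The transcripts share 61.8% of the 31-base subsequences of Ifit3 with Ifit3b, so the split of counts between them is uncertain. Ifit1bl1, a related gene in the same locus, had log2 fold changes of 1.88 and -1.01.

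The OAS family is the second arm of RNA defence, in which double-stranded RNA makes OAS enzymes produce the messenger 2-5A. Its 6 members rose by log2 fold changes of 1.93 to 4.17 in Male and fell by -2.47 to -0.98 in KD, with the largest median of the role groups with 3 or more genes in Male against Female (3.29). Oas3, by far the most abundant member, was at 77.8, 81.9 and 80.4 CPM in Female against 302, 310.2 and 302 in Male, and at 309.9, 312 and 302 in WT against 158, 159 and 151 in KD. It had the smallest fold changes of the family, 1.93 (SE 0.0260) and -0.98 (SE 0.0248, edgeR adjusted p 1.11e-11 and 3.60e-09). Oas2 lay at the other end. It was at 0.567, 0.808 and 0.535 CPM in Female and 11.4, 12.2 and 10.9 in Male, 18.1-fold higher, and at 14.0, 14.5 and 14.1 in WT and 2.86, 2.52 and 2.35 in KD, where 18.1% of the WT level was left. Its log2 fold changes were 4.17 (SE 0.153) and -2.47 (SE 0.0867, edgeR adjusted p 7.38e-09 and 1.85e-08).

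The OAS-like genes Oasl1 and Oasl2 encode relatives with ubiquitin-like ends, and Oasl1 is known to restrain translation of Irf7. Oasl2 was at 1.69, 2.22 and 2.05 CPM in Female against 29.9, 30.7 and 31.6 in Male, and at 14.2, 15.5 and 16.1 in WT against 3.33, 3.80 and 3.04 in KD. Its log2 fold changes were 3.95 and -2.17 (edgeR adjusted p 2.45e-10 and 8.30e-08). Oasl1 had log2 fold changes of 2.27 and -2.08. Oas1a, with 3.51 and -1.73, and Oas1g, with 3.07 and -1.51, are neighbouring copies, and 68.8% of the 31-base subsequences of Oas1a are shared with other genes, nearly all with Oas1g.

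The dynamin-like GTPases Mx1 and Mx2 were among the genes with the largest sex difference. Common inbred mouse strains carry defective alleles of these genes, and GENCODE M21 lists Mx2 as a polymorphic pseudogene, so their RNA may not stand for a working protein. Mx1 was at 4.37, 4.76 and 4.49 CPM in Female against 68.8, 69.5 and 65.9 in Male, and at 71.0, 73.4 and 74.6 in WT against 28.5, 29.6 and 30.8 in KD. Its log2 fold changes were 3.91 (SE 0.0464) and -1.30 (SE 0.0394, edgeR adjusted p 6.85e-12 and 7.48e-09). Mx2 had a lower sex difference and a larger fall in KD, with 3.27 and -2.09. Its level in WT, 4.69 CPM, was also below that in Male, 14.1, whereas Mx1 was at 73.0 and 68.1 CPM (scaled separately in each table).

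The 6 genes for nucleic acid sensors had log2 fold changes of 1.31 to 2.21 in Male and -1.29 to -0.51 in KD. Zbp1, a sensor of Z-form nucleic acid that can start necroptosis, had the highest level per length. It was at 45.3, 42.8 and 43.7 CPM in Female against 127, 127 and 127 in Male, and at 100.4, 104 and 100.4 in WT against 45.3, 46.9 and 48.3 in KD, with log2 fold changes of 1.53 and -1.12 (edgeR adjusted p 6.09e-11 and 6.41e-09). The RIG-I-like receptors were close to one another: Ddx58, which encodes RIG-I, had 1.43 and -1.09, Ifih1, which encodes MDA5, had 1.31 and -1.15, and Dhx58, which encodes LGP2, had 1.81 and -1.29. Ddx60, a helicase reported to aid RIG-I signalling, had the largest sex difference of the sensors, 2.21, and fell by 2.44-fold in KD. Eif2ak2, which encodes PKR, the kinase that halts translation on sensing double-stranded RNA, fell least, from a mean of 81.4 CPM ± 2.63 in WT to 57.0 ± 2.72 in KD (SD, n = 3), a log2 fold change of -0.51.

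The ISG15 system attaches and removes a ubiquitin-like tag. Isg15, the tag, was at 5.45, 4.66 and 5.03 CPM in Female against 42.7, 40.3 and 43.2 in Male, and at 19.7, 17.6 and 19.4 in WT against 4.15, 4.44 and 4.72 in KD. The KD and Female values were alike in size, and the WT values lay below the Male ones. Its log2 fold changes were 3.06 (SE 0.0617) and -2.09 (SE 0.0738, edgeR adjusted p 1.35e-10 and 1.90e-08). Usp18, the protease that removes the tag and also dampens the type I interferon receptor, had 3.33 and -1.63. Herc6, the main ligase that attaches the tag in mice, moved least, with 0.92 and -0.54.

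The PARP and DTX3L group, ADP-ribosylating enzymes and a ubiquitin ligase that work together, changed least of all role groups, with log2 fold changes of 0.64 to 0.88 in Male and -0.27 to -0.059 in KD. Dtx3l was at 229, 241 and 242 CPM in Female and 376, 369 and 368 in Male. It was at 356, 363 and 369.8 in WT and 352, 343 and 350.3 in KD, where the KD mean was 96.0% of WT and the lowest WT library lay just above the highest KD one. The call in KD against WT rests on -0.059 on the log2 scale (SE 0.0205, adjusted p 0.0472 by edgeR), and it was lost in 5 of 9 other settings and in 5 of 6 fits without 1 library. Blocking on the replicate number gave -0.059 and an edgeR adjusted p of 0.0741. Parp9 and Parp14 had log2 fold changes of -0.27 and -0.15 in KD (edgeR adjusted p 1.33e-05 and 0.00217). Parp9 and Dtx3l start from opposite strands of one stretch of DNA, and 9.40% of the exon length of Parp9 overlaps Dtx3l. The use of strand in counting was not stated, so reads of that overlap cannot be assigned.

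Irf7, the transcription factor that amplifies type I interferon production, led the regulators in KD with -1.47 and had 2.38 in Male. Its means were 18.9 CPM ± 0.0906 in Female, 98.4 ± 2.40 in Male, 65.9 ± 0.441 in WT and 23.9 ± 0.644 in KD (SD, n = 3). Rnf213, a giant ubiquitin ligase with activity against intracellular microbes, was the most counted member. It was at 256, 312 and 285 CPM in Female against 1079, 1083 and 1096 in Male, and at 836, 869 and 845 in WT against 385, 387 and 390.1 in KD. The SD was largest in Female, and genes on the other strand overlap 8.74% of its exon length. The log2 fold changes were 1.93 (SE 0.0568) and -1.13 (SE 0.0184, edgeR adjusted p 1.60e-09 and 3.71e-10). Xaf1, which promotes apoptosis, had 2.62 and -0.96, and Samd9l, a translation inhibitor, had 1.52 and -0.72. Sp100, a component of PML nuclear bodies, was the only one of these 5 with a fold change of larger size in KD (-0.74) than in Male (0.62). That difference in size was not tested.

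The TRIM30 and Schlafen genes spread widely in KD, from -4.05 to -0.40, and rose by 1.77 to 3.65 in Male. Slfn5, a member of the Schlafen family linked to growth control in lymphocytes, was at 1.44, 2.00 and 1.54 CPM in Female and 20.7, 21.3 and 20.9 in Male. It was at 16.2, 16.5 and 15.7 in WT and 1.10, 0.783 and 1.05 in KD, where 88, 85 and 101 counts were left against 1770, 1591 and 1523 in WT. The log2 fold change in KD, -4.05 (SE 0.117, edgeR adjusted p 5.43e-09), was the largest in size of the 44, and that in Male was 3.65 (SE 0.110, edgeR adjusted p 1.83e-09). An antisense gene covers 8.84% of its exon length on the other strand. Slfn8, its neighbour, changed far less, with 1.77 and -1.02, and shares 26.8% of its 31-base subsequences with other genes, mostly with Slfn9.

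Trim30a, a TRIM family regulator of inflammatory signalling, was at 69.1, 73.2 and 70.7 CPM in Female against 271, 274 and 274 in Male, and at 189, 191 and 194 in WT against 122, 118 and 124 in KD. The log2 fold changes were 1.94 and -0.66 (edgeR adjusted p 1.11e-11 and 3.74e-08). Trim30d had a larger sex difference, 2.44, and a smaller fall in KD, -0.40. Its promoter holds an ISRE match, shown above, as do those of Ifit3 and Slfn5, which fell far more. The Slfn5 match runs into a stretch of A within an intron of that gene, so it may not be a like element.

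Among the other effectors, Rsad2, which encodes viperin, and Cmpk2, which supplies the CTP that viperin converts to a chain terminator, lie side by side on chromosome 12. Their sex differences were nearly equal, at 2.81 (SE 0.0557) and 2.83 (SE 0.0538), whereas in KD they were -2.58 (SE 0.118) and -1.53 (SE 0.0487). Rsad2 was at 4.18 CPM in Female, 29.3 in Male, 9.25 in WT and 1.54 in KD. Isg20, an exonuclease of RNA, had 3.20 and -1.25, and Rtp4, a receptor transporter with antiviral activity, had 2.89 and -1.71. Ifi44 had the largest fitted sex difference of all members, 4.56 (SE 0.306), on few counts: 5, 7 and 10 in Female and 206, 194 and 125 in Male. In KD it had -1.16 (SE 0.308, edgeR adjusted p 0.0140), and without WT replicate 2 it was no longer called, at -0.96 (edgeR adjusted p 0.0625).

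Ifi27l2a, which encodes a small hydrophobic protein of the Ifi27 family, had the highest level per length of all 44 in Male, WT and KD (in Female it was Dtx3l), with a Male mean of 107 CPM per kilobase of exon against 64.8 for Dtx3l. It was at 17.3, 14.4 and 17.4 CPM in Female against 50.8, 51.9 and 46.4 in Male, and at 61.4, 59.0 and 63.8 in WT against 30.5, 35.6 and 34.1 in KD, with log2 fold changes of 1.60 and -0.88 (edgeR adjusted p 3.33e-08 and 1.23e-06). Its neighbour Ifi27 and Ifi35, an interferon-induced leucine zipper protein, had the smallest sex differences of the 44, 0.58 and 0.61, and fell by log2 values of -0.36 and -0.33 in KD. Bst2 (tetherin), which holds budding virus at the cell surface, and Lgals3bp, a secreted glycoprotein that binds galectin-3, rose in Male, by 1.46 and 2.20. In KD they kept 82.4% and 74.6% of the WT level, with log2 fold changes of -0.28 and -0.42 (edgeR adjusted p 9.94e-05 and 2.59e-06). Of the others, Ifi35 has 16.8% of its exon length under an opposite-strand gene.

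**Figure D2:**
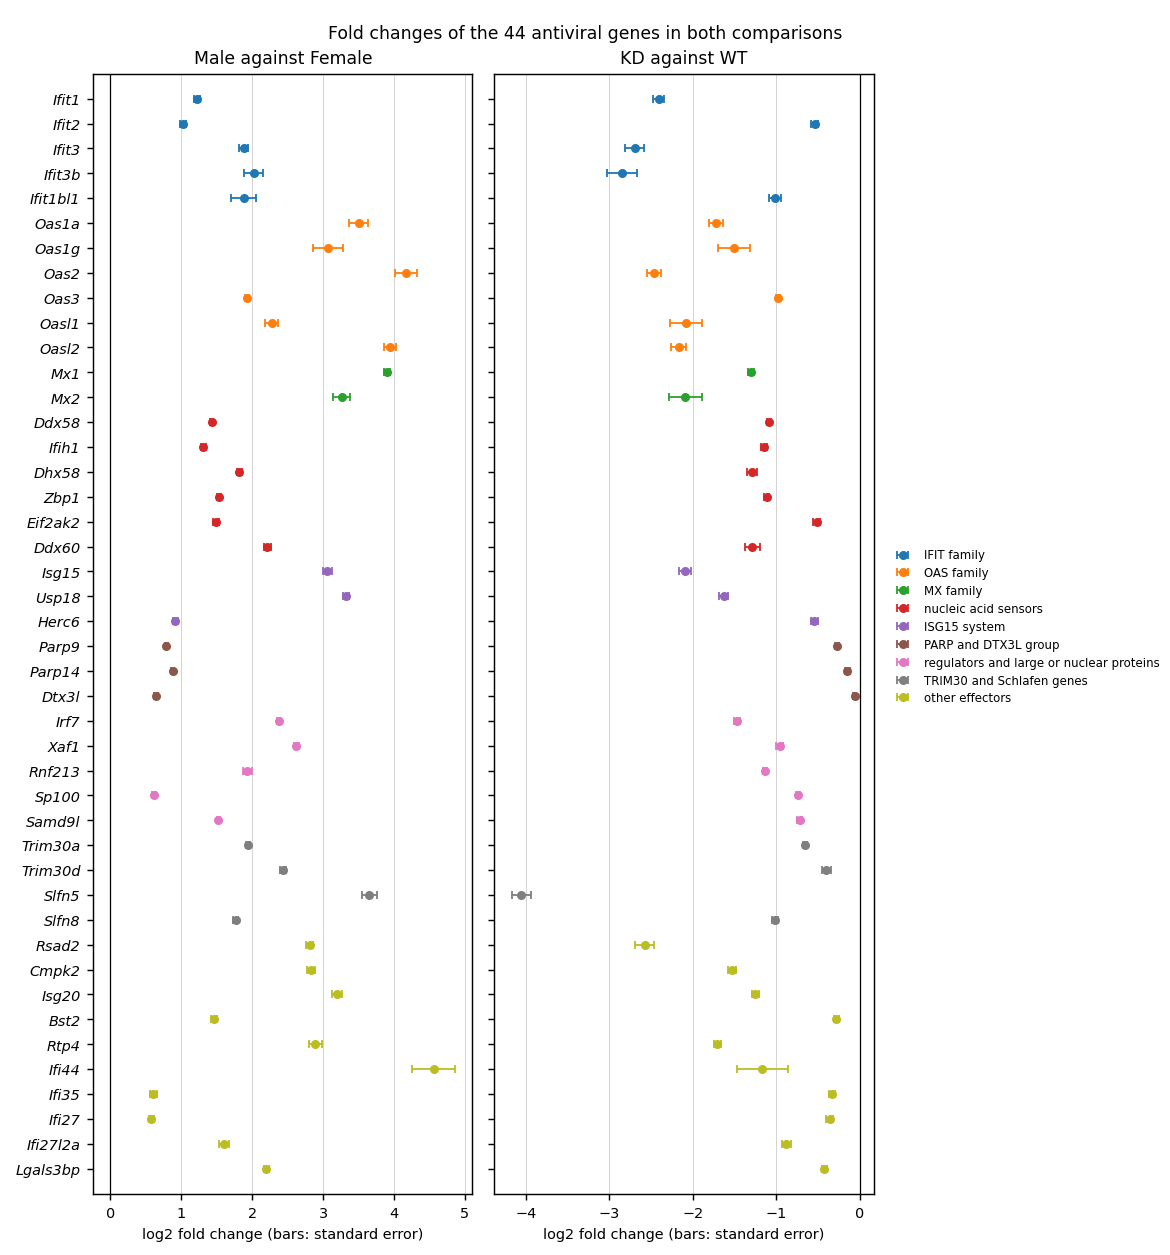
Log2 fold changes (horizontal axis, with bars for standard errors) of the 44 members, coloured by role, in Male against Female (left) and KD against WT (right, with its own scale). All points lie right of 0 on the left side and left of 0 on the right side, from 0.58 to 4.56 and from -4.05 to -0.059.

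The comparisons share no libraries. Across the 44 genes, the log2 fold changes in Male against Female and in KD against WT correlated at -0.679 by Spearman's rho and -0.59 by Pearson's r. These are given as a description, since genes are not independent replicates and were chosen as one program. Several genes lie apart from the rest. Ifit1, Ifit3 and Ifit3b fell further in KD than genes with a like sex difference, such as Ddx58 and Trim30a. Lgals3bp, Trim30d and Bst2 fell little for their sex difference. Mx1 had nearly the sex difference of Oasl2 (3.91 and 3.95) but fell less in KD (-1.30 and -2.17). These genes were picked from the plotted values, and the differences between genes were not tested.

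**Figure D3:**
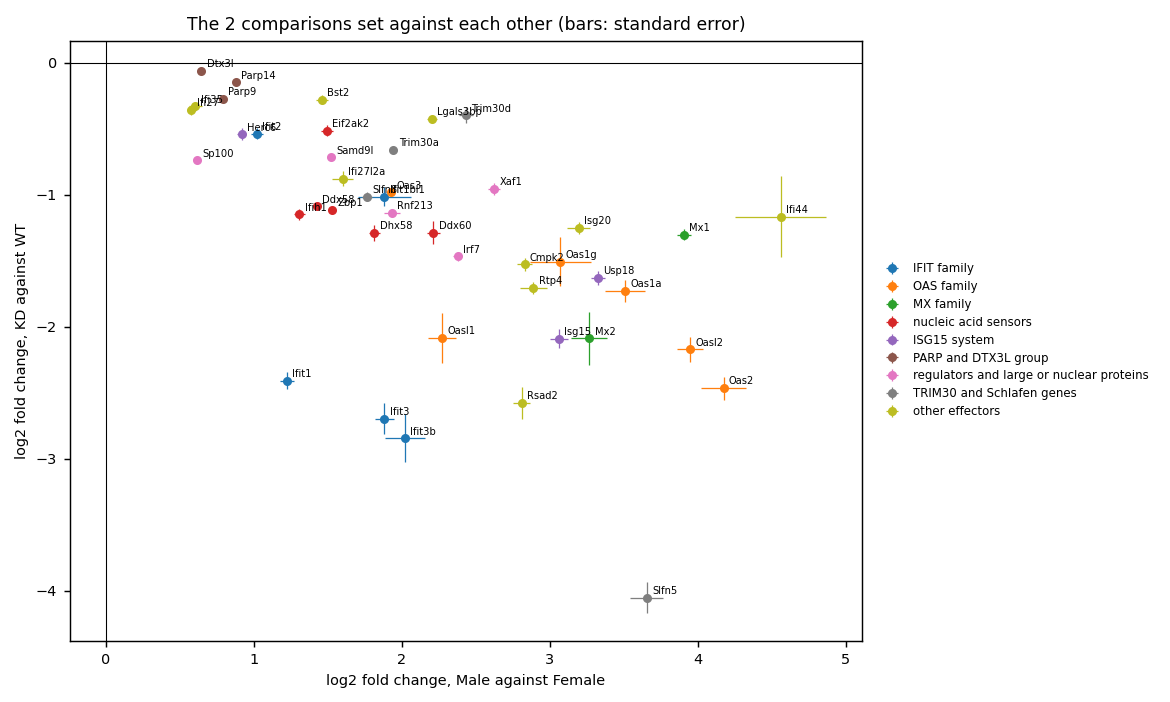
Log2 fold change of each member in Male against Female (horizontal axis) and in KD against WT (vertical axis), with bars for standard errors and colours for roles. The points run from Dtx3l at 0.64 and -0.059 near the upper left to Slfn5 at 3.65 and -4.05, and Ifit1, Ifit3 and Ifit3b lie low for their position along the horizontal axis.

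Levels were also set side by side across the 4 groups, with the 12 libraries scaled together. Female and KD differ in sex, electroporation, Cas9 and batch, which cannot be told apart, so no test was made. The 3 KD libraries lay below the 3 Female libraries for 10 members (Ifit1, Ifit2, Ifit3, Ifit3b, Oasl1, Ifih1, Ddx60, Herc6, Slfn5 and Rsad2), above them for 30, and overlapped them for 4 (Mx2, Dhx58, Isg15 and Sp100). Over the 21500 genes that passed the filter in the 12 libraries, KD and Female did not overlap for 65.3%, with KD below for 32.9% and above for 32.5%. At the low end KD held 0.184 of the Female level of Ifit3b and 0.188 of that of Ifit1. At the high end it held 6.54 times the Female level of Mx1, 6.29 times that of the low-count Ifi44, 5.29 times that of Lgals3bp and 5.16 times that of Isg20. The WT mean was below the Male mean for 30 of the 44, with ratios from 0.281 for Oasl1 to 1.56 for Lgals3bp and a median of 0.79, against a median of 0.987 over all 21500 genes, of which 51.6% had a WT mean below the Male mean. The WT level of Ifit1 was 0.435 times the Male level and that of Mx1 1.09 times.

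**Figure D4:**
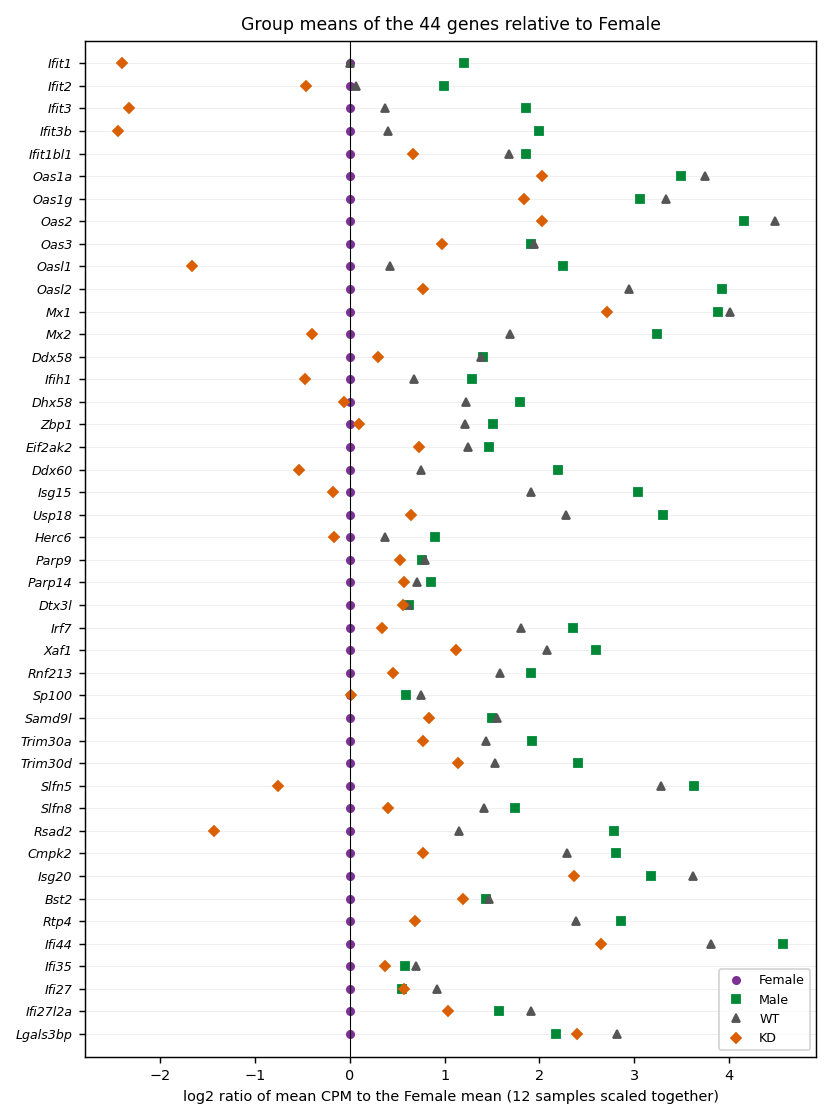
Log2 ratio of each group mean to the Female mean (horizontal axis) for the 44 members, with CPM of all 12 libraries scaled together and one symbol per group. Male lies right of 0 for all members, and KD lies left of it for 13, furthest for Ifit1, Ifit3 and Ifit3b.

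Many of the members are neighbours in the genome. In GRCm38, 24 of them lie in 9 clusters with gaps under 100000 bases, and the 44 spread over 13 chromosomes. The 5 Ifit genes lie on chromosome 19 between 34550694 and 34650009, and 4 Oas genes on chromosome 5 between 120730333 and 120907521. Parp14, Dtx3l and Parp9 lie on chromosome 16 between 35832874 and 35972605, and Mx1 and Mx2 on the same chromosome between 97447035 and 97560900. Neighbours could be alike, as in the PARP cluster, with log2 fold changes of 0.64 to 0.88 in Male, or far apart, as for Slfn5 and Slfn8 on chromosome 11 between 82951349 and 83020810, with -4.05 and -1.02 in KD. Protein-coding genes outside the list within 100000 bases of a member moved in both directions. Unlisted relatives of the members were not set apart from these neighbours. Of 127 such genes tested between Male and Female, 57 were called higher and 37 lower in Male, 74% in all, against 64% of all protein-coding genes. Of all 13130 protein-coding genes tested there, 3593 were called higher and 4815 lower in Male. The neighbours thus had more higher than lower calls, the reverse of protein-coding genes at large, and this lean was not tested. Of 128 tested between KD and WT, 24 were called higher and 41 lower in KD, 50.8% in all, against 48% of all protein-coding genes. Of all 13239 protein-coding genes tested there, 2949 were called higher and 3406 lower in KD.

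Genes upstream of the members were taken from a list of ligands, receptors, kinases, transcription factors, sensing adaptors and brakes. Of 46 genes matched, 36 were tested in each comparison. In Male against Female, 16 were called higher and 15 lower in Male, and the median over the 36 was 0.11 (log2). In KD against WT, 6 were called higher and 18 lower in KD, with a median of -0.13. The shares called in either direction were thus 86.1% and 66.7%. Over all genes they were 49.8% and 35.1%, and over protein-coding genes 64% and 48%. A change of 1 or more on the log2 scale was called for 5 of 36 in Male against Female by edgeR, for 6 by edgeR at an unadjusted p under 0.05 and for 5 by DESeq2, where edgeR called 7.28% of all genes. In KD against WT it was called for 0 of 36 by each of the 3, where edgeR called 3.96% of all genes.

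The type I interferon genes on the list had few counts, and any off the list were not examined. The listed genes Ifna1, Ifna2, Ifna4, Ifna5, Ifnab and Ifnb1 together held 5, 6 and 11 counts in the Female libraries against 44, 71 and 38 in Male, and 9, 3 and 12 in WT against 3, 4 and 6 in KD. Ifnk, another listed type I gene, had 22, 6 and 12 counts in Female against 23, 31 and 7 in Male, and 20, 9 and 14 in WT against 9, 24 and 7 in KD. It was not called, at 0.58 and -0.039 (edgeR adjusted p 0.501 and 0.967). With Ifnk added, the sums were 27, 12 and 23 counts in Female against 67, 102 and 45 in Male, and 29, 12 and 26 in WT against 12, 28 and 13 in KD. The Male libraries still lay above the Female ones, and WT and KD overlapped with and without it. Ifne, the remaining listed type I gene, had 3 counts in 1 WT library and 0 elsewhere. Ifnb1 had 0, 8 and 6 counts in Male and 0 in all other libraries. The Ifna genes are near copies of one another, so their counts are uncertain. Of the 6 genes without Ifnk and Ifne, Ifna2 alone passed the low-count filter in Male against Female, with 2.01 (SE 0.535, edgeR adjusted p 0.0100), and none passed it in KD against WT. Interferon gamma, the type II ligand that activated T cells make, was at 0.378, 0.542 and 0.278 CPM in Female against 2.65, 1.92 and 2.09 in Male, and at 6.10, 6.68 and 6.86 in WT against 4.76, 5.09 and 4.73 in KD. Its log2 fold changes were 2.47 and -0.43 (edgeR adjusted p 1.90e-05 and 0.00388).

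Receptors and kinases were lower in both comparisons, apart from Ifngr2 in KD (-0.19, edgeR adjusted p 0.0613). The 4 receptor genes were lower in Male, by log2 fold changes of -0.50 to -0.19, and 3 of the 4 were also lower in KD. Ifnar1, a chain of the type I receptor, had -0.50 and -0.24, and Ifngr1 had -0.19 and -0.64. The kinase genes Jak1, Jak2 and Tyk2 were called lower in both comparisons, with values of -0.40 to -0.12 in Male and -0.58 to -0.34 in KD.

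Among transcription factor genes, Stat2 rose in Male and fell in KD, with 1.26 and -0.50, and Irf9 did likewise, with 0.71 and -0.40 (edgeR adjusted p in KD 3.51e-07 and 2.75e-06). Irf1, a factor induced mainly by interferon gamma, was lower in Male and higher in KD (-0.23 and 0.22). Irf3, the factor that starts type I interferon transcription, had 0.010 in Male and 0.0072 in KD, neither past the threshold (edgeR adjusted p 0.804 and 0.903). Irf8 was higher in Male, 1.15, and at 0.044 in KD (edgeR adjusted p 0.165).

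Among adaptors and sensing genes, 8 of 13 tested were called higher in Male and 2 lower, and 7 of 14 were called lower in KD and 0 higher. Over all genes, 23.5% were called higher and 26.3% lower in Male, and 18.4% lower in KD. Over protein-coding genes, 64% and 48% were called in either direction, against 76.9% and 50% of these genes. The calls among these genes in KD were all lower, whereas those of protein-coding genes went both ways (2949 higher and 3406 lower of 13239). This lean was not tested. Adar, an RNA editing enzyme with an interferon-driven promoter, had 0.70 and -0.26. Samhd1, which breaks down nucleotides needed by viruses, had 0.21 and -0.60. Tmem173, which encodes STING, was at 0.014 and 0.013, and Cgas at 0.16 and 0.058; of these 4 values, that of Cgas in Male passed the threshold (edgeR adjusted p 0.00954). Of the brakes, Socs1, an inhibitor of JAK kinases, had log2 fold changes of 0.53 and -0.14 (edgeR adjusted p 4.14e-07 and 0.00122).

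**Figure D5:**
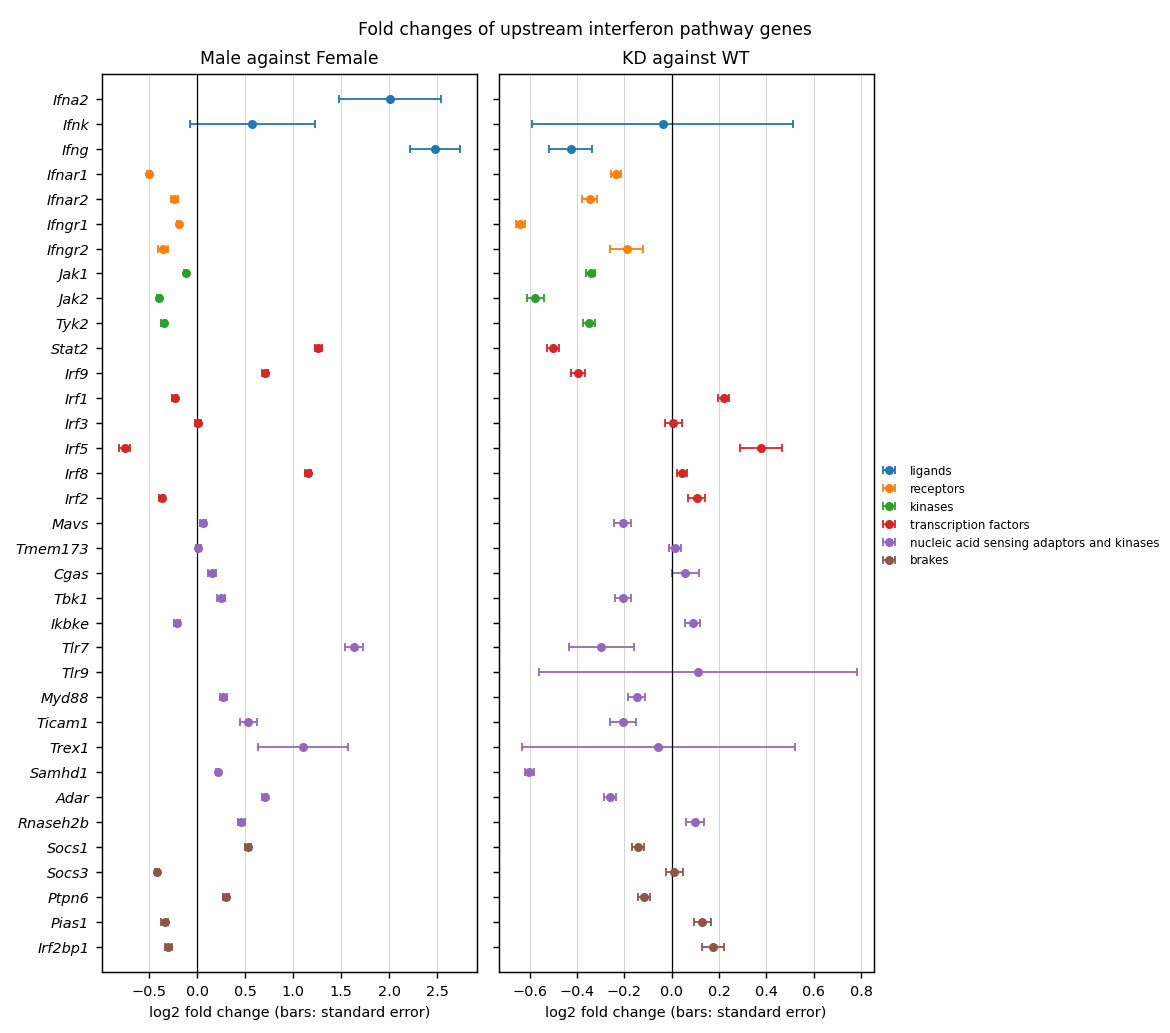
Log2 fold changes (horizontal axis, with bars for standard errors and a separate scale on each side) of the upstream genes reported here that were tested in at least 1 comparison, coloured by role. In Male against Female (left) points lie on both sides of 0, and in KD against WT (right) all lie between -0.64 and 0.38, with Stat2 and Irf9 to the left of 0 and Irf1 and Irf5 to the right.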

How the data were processed

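The authors deposited 2 tables of whole-number counts per gene, one for Female and Male and one for WT and KD, in which each of the 12 columns carries a sample title. Per the submitters' processing notes, bcl2fastq 2.20.0, HISAT2, StringTie, DESeq2 and the build mm10 were used. Settings, annotation, counting step and use of strand are not given in the sources used here. Libraries were stranded total RNA after ribosomal RNA depletion, per the labels' protocols. If the counts came from StringTie they are estimates from coverage, so intervals from counting alone would be too narrow, and none are given.

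Each table was fitted separately in R 4.3.3 with edgeR 4.0.16 (TMM factors, filterByExpr, quasi-likelihood test, Benjamini-Hochberg adjustment over all genes), and each standard error was taken as the size of the fold change (log2) over √F. The fit was tested on simulated data. Some genes of the upstream list enter its counts but are not reported here by name. Identifiers were looked up in GENCODE M21, which matched 55227 and left 260 unmatched. Level per length is CPM divided by the union of exons in kilobases. The members, role groups and other lists were chosen with earlier results of these data known. All members are named, and values of every library were printed by rule for the gene with the highest level per length in each role group, the 3 genes with the largest fold changes per comparison among genes of at least 1 CPM on average, and any gene against the common direction; the others are given by means, fold changes or ranges. Alternatives were other scaling factors, filters, DESeq2 1.42.0, limma-voom (limma 3.58.1), counts divided by 4, a joint fit, a replicate block and leaving out each library.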

Additional observations from a re-analysis of the deposited data

How the results depend on the processing

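Over 395 refits of single members in Male against Female and 264 without 1 library, direction and call held in each. In KD against WT they held in 390 of 395 and 258 of 264, and no value changed sign. The exceptions were Dtx3l and, without WT replicate 2, Ifi44. Dtx3l was not called with upper-quartile factors (-0.029), a mean CPM of at least 1 (-0.051), counts divided by 4 (-0.055), all 12 samples in one fit (-0.059) or the replicate block (-0.059). Called members numbered 32 of 32 in each comparison without those that share over 10% of their 31-base subsequences, and 42 to 44 without 1 library of WT or KD.

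The median log2 fold change in Male against Female moved by more than the spread between replicates without a low-count filter (1.92), with a mean CPM of at least 1 (1.95) and with all 12 samples in one fit (1.92), and ran from 1.93 to 1.98 without 1 library. In KD against WT it was -1.11 with upper-quartile factors and ran from -1.15 to -1.11 without 1 library. When a change of 1 or more on the log2 scale was required, 27 members were called in KD against WT, and upstream genes numbered 5 and 0, against 31 and 24; these counts are lower because fewer genes can pass. Without 1 library, 31 to 32 and 20 to 24 upstream genes were called.

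With the replicate number as a block, 44 and 43 members were called, with medians of 1.94 and -1.14, and Kdm5d was at -1.21 in KD against WT. Same-numbered libraries did not deviate together (correlations of -0.0399 to 0.0206), so the numbers were not taken as pairs. Low counts limit Ifi44, Oas1g and the interferon ligands most.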
